A study of Homo sapiens with 2 samples.

Results

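Lysine lactylation was profiled in CAL27, an established line of human oral squamous cell carcinoma, and the regions described here are those called in both libraries whose signal was at least 2 times as high in the library labelled lactate. Of 30633 pairs of regions that overlapped by at least 1 bp on chromosomes 1 to 22 and X, 19687 held at least 30 tags in the 2 libraries together and were tested against that threshold, and 784 passed it. These 784 lactate-labelled regions were paired with 783 distinct untreated-labelled ones. The share passing was 3.98%. The members were selected on these measured values, so their ratios and pileups are a description of the selection and carry no test. In the opposite direction 67 tested regions had a ratio of at most 0.5, which is 0.34%.

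The groups were 1 library of untreated CAL27 cells and 1 of CAL27 cells given 10 mM lactate for 24 hours, both made with a pan-lactyllysine antibody. An established line stands for 1 tumour. Each group had 1 library, so no difference below has a replicate check and no p-value is given. In CUT&Tag the antibody guides a protein A-Tn5 transposase, which cuts and tags the DNA nearby, so the tags piled up at a site measure how often it was cut. A library without antibody was not used here, and cutting of open chromatin by the transposase cannot be told apart from antibody-guided cutting.

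Lactyl groups are attached to lysines of histones and other proteins. Lactate, made by lactate dehydrogenase from pyruvate at the end of glycolysis, feeds the modification, acyltransferases such as EP300 can write it and histone deacetylases can remove it. On histones it is best known from promoters and enhancers of active genes, beside acetylation.

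The file headers contradict the labels. The run name, the input name and all 49750 summits of the list labelled untreated carry the name of the lactate sample, and the same holds in reverse for the 58929 summits of the list labelled lactate. Samples were kept as labelled, and every direction below would turn if the lists had been exchanged. There were 15696147 tags in the untreated-labelled and 15120031 in the lactate-labelled library, and collapsing summits gave 43413 and 50111 regions. A pileup, the number of tags over a summit, was divided by its library's tags in units of 1000000, which gives the scaled pileup. The ratio below is the lactate-labelled over the untreated-labelled scaled pileup, and where tags are given as 1 number against another the lactate-labelled library comes first. Of 10 squamous epithelium markers 7 had a tested shared region at an end or inside, against 7 of 20 markers of other cell types. At a gene end the counts were 5 and 1. Gene length was not taken into account, no share over all protein-coding genes was set beside these counts, and a region at a gene is not a measure of its expression.

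The promoters of the 6 gene-end members of highest ratio are shown because the tags of these members piled up on or beside them, from RefSeq (GRCh38.p14, the build of the peaks), each running from 250 bases before the start of transcription to 50 after, 5′ to 3′ on the gene's strand. STIM2 is at chr4:26860591-26860890 (plus strand), LOC139427322 at chr1:179882066-179882365 (plus), LGALS9 at chr17:27630938-27631237 (plus), HNRNPF at chr10:43408808-43409107 (minus), COG3 at chr13:45464689-45464988 (plus) and PIGA at chrX:15335505-15335804 (minus). Capitals mark, in either orientation, the GC box (GGGCGG), the CCAAT box (CCAAT), the ETS core (CCGGAA), the TEAD core (GGAATG) and the hypoxia response core (ACGTG).
STIM2: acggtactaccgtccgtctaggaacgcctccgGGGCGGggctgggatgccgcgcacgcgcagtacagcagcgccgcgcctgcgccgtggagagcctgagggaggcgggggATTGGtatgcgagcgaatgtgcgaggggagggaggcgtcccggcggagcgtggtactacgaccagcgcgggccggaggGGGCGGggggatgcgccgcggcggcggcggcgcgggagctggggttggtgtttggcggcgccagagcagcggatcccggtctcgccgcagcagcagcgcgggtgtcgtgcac
LOC139427322: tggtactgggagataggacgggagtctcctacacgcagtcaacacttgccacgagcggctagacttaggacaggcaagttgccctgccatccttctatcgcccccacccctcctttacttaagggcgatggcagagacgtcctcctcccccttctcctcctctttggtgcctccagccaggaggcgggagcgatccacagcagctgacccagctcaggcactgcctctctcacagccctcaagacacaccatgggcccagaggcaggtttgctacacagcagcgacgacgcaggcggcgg
LGALS9: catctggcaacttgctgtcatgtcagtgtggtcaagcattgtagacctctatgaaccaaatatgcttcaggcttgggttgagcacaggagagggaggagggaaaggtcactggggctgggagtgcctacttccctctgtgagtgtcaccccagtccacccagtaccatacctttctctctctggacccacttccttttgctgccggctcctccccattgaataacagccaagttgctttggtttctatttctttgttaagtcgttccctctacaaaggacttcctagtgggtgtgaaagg
HNRNPF: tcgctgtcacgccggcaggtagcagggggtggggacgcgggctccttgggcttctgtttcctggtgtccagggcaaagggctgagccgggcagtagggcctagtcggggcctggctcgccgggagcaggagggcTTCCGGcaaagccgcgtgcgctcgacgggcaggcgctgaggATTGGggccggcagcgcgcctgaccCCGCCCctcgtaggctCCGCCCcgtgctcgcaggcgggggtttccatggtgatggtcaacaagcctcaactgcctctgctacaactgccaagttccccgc
COG3: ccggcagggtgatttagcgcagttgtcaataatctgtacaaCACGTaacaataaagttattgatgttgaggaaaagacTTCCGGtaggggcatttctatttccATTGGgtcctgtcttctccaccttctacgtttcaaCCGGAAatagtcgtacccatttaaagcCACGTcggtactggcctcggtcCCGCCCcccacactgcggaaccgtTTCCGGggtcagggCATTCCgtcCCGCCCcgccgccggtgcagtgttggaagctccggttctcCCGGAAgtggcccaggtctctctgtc
PIGA: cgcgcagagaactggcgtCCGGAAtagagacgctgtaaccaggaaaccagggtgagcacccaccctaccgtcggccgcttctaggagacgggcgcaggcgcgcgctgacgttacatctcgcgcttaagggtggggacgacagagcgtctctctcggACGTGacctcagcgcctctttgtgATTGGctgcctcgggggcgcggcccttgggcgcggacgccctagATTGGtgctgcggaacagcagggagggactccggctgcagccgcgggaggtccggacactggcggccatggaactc
Of the 6 promoters, 4 held the CCAAT box (STIM2, HNRNPF, COG3 and PIGA), 3 the GC box (STIM2, HNRNPF and COG3), 3 the ETS core (HNRNPF, COG3 and PIGA) and 2 the hypoxia response core (COG3 and PIGA). GC content was 74.7% at STIM2, 69.7% at HNRNPF, 66.7% at PIGA and 55.0% at COG3. The LGALS9 promoter, with a GC content of 50.7% and 2 CpG dinucleotides, and that of LOC139427322, with 14, held none of the motifs searched. A match is a run of letters and not a bound site.

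**Figure D1:**
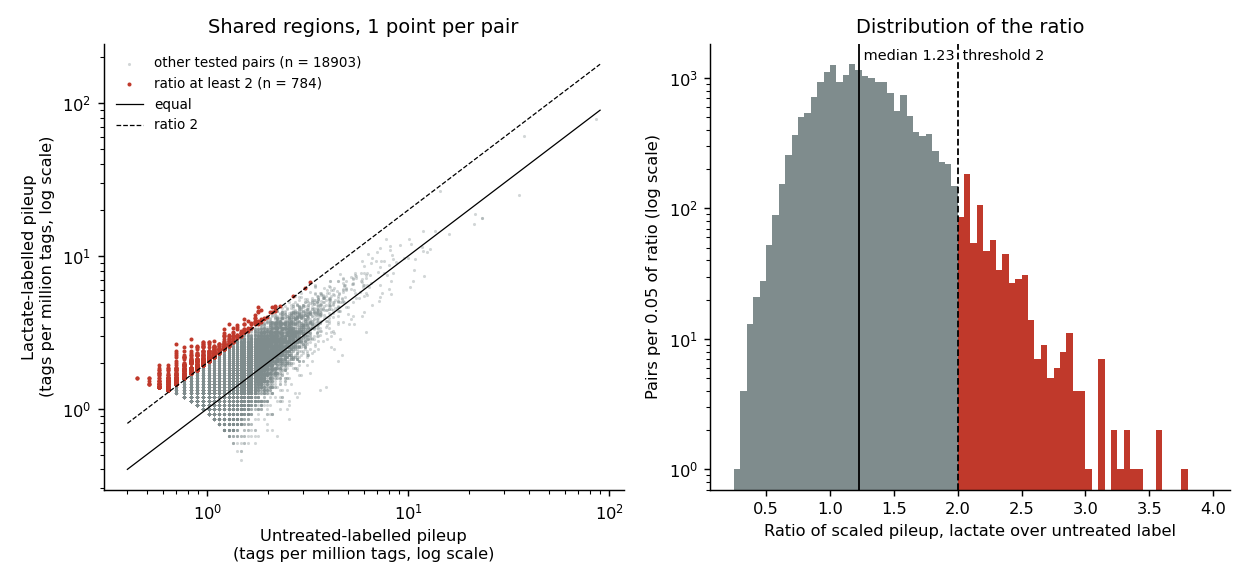
Left, scaled pileup of the 19687 tested pairs, untreated-labelled on the x axis and lactate-labelled on the y axis (tags per 1000000 tags, log scales), with the 784 members in red. Right, number of pairs per 0.05 of ratio (log scale). The members form the upper edge of 1 continuous cloud whose median lies at 1.23, not a separate group.

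The whole distribution of shared regions leaned toward the library labelled lactate. The median ratio of all tested pairs was 1.23, a shift of 0.29 on the log2 scale, with quartiles of 1.01 and 1.48, and 75.7% of pairs lay above 1. Relative to that median, 146 of the 784 members were still at least 2 times higher, and 258 pairs were at most 0.5, so the balance between the directions depends on the scaling. The lowest member stood 1.63 times above the median of all pairs.

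The pileups of members overlapped in range with those of the other pairs. Raw pileup ran from 20 to 102 tags in the library labelled lactate, with a median of 29, and from 7 to 51 in the library labelled untreated, with a median of 13. Ratios ran from 2.00 to 3.77 with a median of 2.18. Only 117 members reached 2.5 and 18 reached 3. The summed pileup had a median of 43 in members and of 43 in the other tested pairs, and the share of pairs that passed was 4.76% (95% interval 4.18 to 5.39%) at 40 to 49 tags and 2.21% (1.54 to 3.08%) at 80 or more. Counting error on single regions was wide. The exact interval of the ratio lay above 1 in 685 members (87.4%) and above the median of all pairs in 229 (29.2%). Among all 19687 tested pairs these counts were 1499 (7.61%) and 256 (1.30%). The interval is computed from the same 2 pileups that chose the members, so the member counts describe the selection.

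At the threshold itself 8 members tied at the lowest ratio and 34 pairs tied just outside. Among the 8 were regions at the ends of CAPN1, which encodes a calcium-dependent protease, with 54 tags against 28, and of ZNF438 and PATL1, each with 27 against 14. These stood at a ratio of 2.00, and the paired summits at PATL1 lay 379 bp apart. Among the 34 just outside were regions at MPND and FARP2 and one in the noncoding gene LOC124903822, each with 50 tags against 26, a scaled pileup of 3.31 against 1.66. A single tag separates such regions from the members.

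The member of highest ratio lay outside any gene at chr13:30865304-30865661, 40.8 kb from MEDAG and 17.1 kb from the noncoding gene LINC00545. It had 40 tags in the library labelled lactate (scaled pileup 2.65) and 11 in the library labelled untreated (scaled pileup 0.701), a ratio of 3.77 (95% interval 1.90 to 8.16). This interval lay above the median of all pairs, but it was computed from the pileups that selected the region.

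Among members at protein-coding gene ends the highest ratio belonged to STIM2, which encodes a calcium sensor of the endoplasmic reticulum. The region chr4:26860325-26860782 had 24 tags (scaled pileup 1.59) against 7 (scaled pileup 0.446), a ratio of 3.56 (1.49 to 9.78), with the summit 195 bp before the transcription start, inside the promoter printed above. TMCO1, a calcium channel protein of the same compartment, had 25 tags against 9 at chr1:165768756-165769057, a ratio of 2.88 (1.30 to 7.02). Both regions held few tags, and both intervals are wide.

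A region with more tags at chr1:179882200-179883320 covered the start of LOC139427322 and lay at an end of TOR1AIP1. TOR1AIP1 encodes a protein of the inner nuclear membrane, and which of its ends this is was not read, as strand was not used. The region had 38 tags (scaled pileup 2.51) against 12 (scaled pileup 0.765), a ratio of 3.29 (1.68 to 6.91). LGALS9, the gene of the glycan-binding galectin-9, had 39 tags (scaled pileup 2.58) against 13 (scaled pileup 0.828) at chr17:27630875-27631662, a ratio of 3.11 (1.63 to 6.36). The paired summits there lay 501 bp apart, so they may not be the same site.

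HNRNPF, COG3 and PIGA shared the ratio of 3.11. At HNRNPF, the gene of a splicing regulator, the tags were 33 against 11 (scaled, 2.18 against 0.701), with paired summits 348 bp apart. COG3, a subunit of the complex that tethers vesicles to the Golgi, and PIGA, the catalytic subunit for the step that starts GPI-anchor synthesis, each had 27 against 9 (scaled, 1.79 against 0.573), with summits 62 and 40 bp apart. The COG3 and PIGA summits lay 68 and 90 bp before the starts printed above.

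NRDC, the gene of the metalloprotease nardilysin, and GMDS, which encodes the enzyme that starts GDP-fucose synthesis, each had 26 tags against 9, a ratio of 2.999. Paired summits lay 367 bp apart at NRDC and 118 bp apart at GMDS. ZNF430, a zinc finger gene, had 31 against 11, a ratio of 2.93. ARFGEF2, which encodes an exchange factor for ARF GTPases, had 28 against 10, a ratio of 2.91, from an untreated-labelled region of 200 bp. The ARFGEF2 summits lay 331 bp apart, the lactate-labelled one outside the untreated-labelled region, so they may not be the same site. The last of the 12 was a region of 1201 bp at chr17:7483853-7485053 at the ends of ZBTB4, SLC35G6 and POLR2A, the gene of the largest subunit of RNA polymerase II. It had 36 tags against 13, a ratio of 2.87 (1.49 to 5.91), with paired summits 523 bp apart. The summits of these 12 members lay between 10 bp (TMCO1) and 338 bp (LGALS9) from a gene end.

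**Figure D2:**
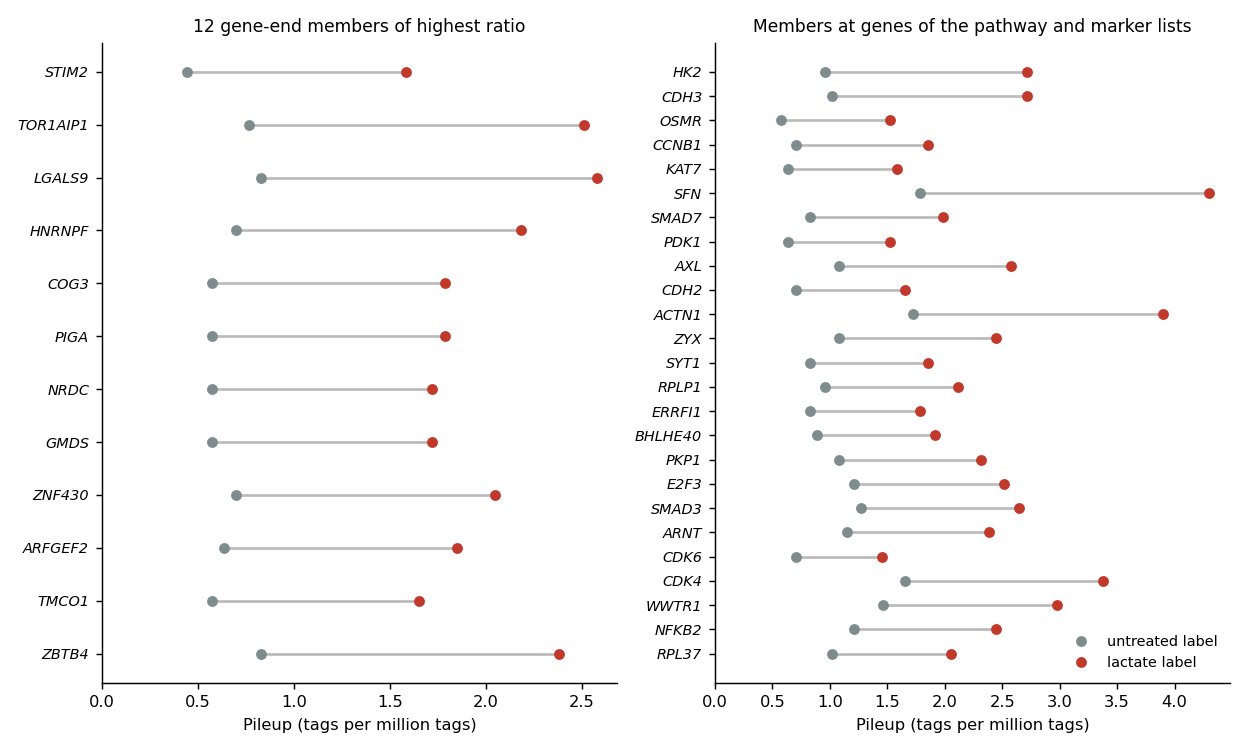
Scaled pileup (tags per 1000000 tags) in the library labelled untreated (grey) and in the library labelled lactate (red) for the 12 gene-end members of highest ratio (left) and for members at genes of the pathway and marker lists (right). Each line joins 1 pair. STIM2 started from the lowest untreated-labelled value, 0.446, and SFN reached the highest lactate-labelled value of those plotted, 4.30.

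The members with most tags had ratios close to the threshold. A region of the noncoding gene LOC124901589 at chr7:12065978-12067038 had 102 tags (scaled pileup 6.75) against 51 (scaled pileup 3.25), a ratio of 2.08 (1.47 to 2.97), with paired summits 588 bp apart, so they may not be the same site. On chromosome 2, 2 members lay within the 8.6 kb around TP53I3, a p53-induced oxidoreductase gene. That at chr2:24076262-24077110, which FAM228B and the splicing factor gene SF3B6 share, had 93 tags against 48, and that at chr2:24083922-24084857 had 83 against 42, with ratios of 2.01 and 2.05. Their paired summits lay within 12 and 2 bp of each other.

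LTBP2, which encodes an extracellular matrix protein of the latent TGF-beta binding family, had 71 tags against 36 inside the gene, a ratio of 2.05. A region at the ends of MATCAP1, a tubulin-processing enzyme gene, and EXOC3L1 had 71 against 34, a ratio of 2.17. The region 50.3 kb outside MTCL1, the gene of a microtubule-crosslinking protein, had 70 against 34, a ratio of 2.14. GAS6, the secreted ligand of the receptor AXL, had 70 against 33, a ratio of 2.20, with paired summits 379 bp apart. In GMPS, the gene of GMP synthetase, the tags were 67 against 34, a ratio of 2.05, with the summit 109 bp before an annotated GMPS start. For each of these 8 members the interval lay above the median of all pairs, with lower bounds of 1.33 to 1.47. The members were chosen on the same pileups, so this describes the selection and is no test.

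Inside genes, away from their ends, high ratios were found at PREP, HSD17B2 and PHLDB2. PREP encodes a prolyl endopeptidase and had 24 tags against 7, a ratio of 3.56, in a region 18.8 kb from the gene's nearer end. HSD17B2, whose enzyme inactivates sex steroids, had 43 against 13 (scaled, 2.84 against 0.828), a ratio of 3.43 (1.81 to 6.96), with paired summits 499 bp apart. PHLDB2, which encodes a protein that links microtubules to the cell cortex, had 36 against 11, a ratio of 3.40 (1.69 to 7.40). PHLDB2 also held a member of 22 tags against 11 among its 13 tested pairs.

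Over 10 kb from any gene end, besides the regions near MEDAG and in PREP, the highest ratios lay 167 kb from HMGA2, which encodes an architectural chromatin protein, with 35 tags against 11 (ratio 3.30), and inside PAX5, a B-cell transcription factor gene, with 28 against 9 (ratio 3.23). Paired summits in PAX5 lay 285 bp apart. Members over 10 kb from any gene end numbered 253, or 32.3% (29.0 to 35.7%), beside 32.1% of all tested pairs.

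Where members lay was not used to choose them. The lactate-labelled summit fell within 1 kb of an end of a protein-coding gene in 255 of 784 members, or 32.5% (29.3 to 35.9%), and in 27.0% (26.4 to 27.6%) of all tested pairs. Inside a protein-coding gene but away from its ends lay 35.5% of members and 36.5% of all pairs. Other genes, mostly long noncoding RNA genes, held 10.1% and 12.6%, and 21.9% and 23.8% lay outside genes. The share at gene ends was thus the one that stood higher in members than in all pairs, with intervals that do not meet. In the 67 opposite regions the share at gene ends was 31.3% (20.6 to 43.8%). That interval holds the shares of both members and all pairs, so these few regions cannot be set apart from either.

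Start sites gave a similar picture, over an incomplete set of starts. Some genes on other chromosomes than 8 also had no start among those used, for example SLC16A1 and CDH3. Their summits 120 and 297 bp from a gene end were set against starts at LRIG2 and ZFP90. The shares below count only the starts used. Excluding chromosome 8, whose starts were not used here, 245 of 754 members (32.5%, 29.2 to 36.0%) had the summit within 1 kb of a protein-coding start, against 25.2% (24.6 to 25.9%) of all tested pairs. This share was 20.5% among pairs with a ratio under 0.8, 24.9% between 1 and 1.25, and 28.4% between 1.5 and 1.75. It was 25.8% between 1.75 and 2, just outside the members, 32.3% between 2 and 2.5 and 33.3% at 2.5 and over. The share was thus lower in the class just below the threshold than between 1.5 and 1.75, but their intervals overlap (23.3 to 28.4% and 26.6 to 30.2%). It was higher in the class just above the threshold, with an interval of 28.7 to 36.1%. The 67 opposite regions, which lie within the class under 0.8, had a share of 29.7% (18.9 to 42.4%, 19 of 64). That interval holds the 20.5% of their class. The share over 10 kb from any gene end moved the other way only at low ratios, from 38.2% under 0.8 to 29.6% between 1.5 and 1.75.

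**Figure D3:**
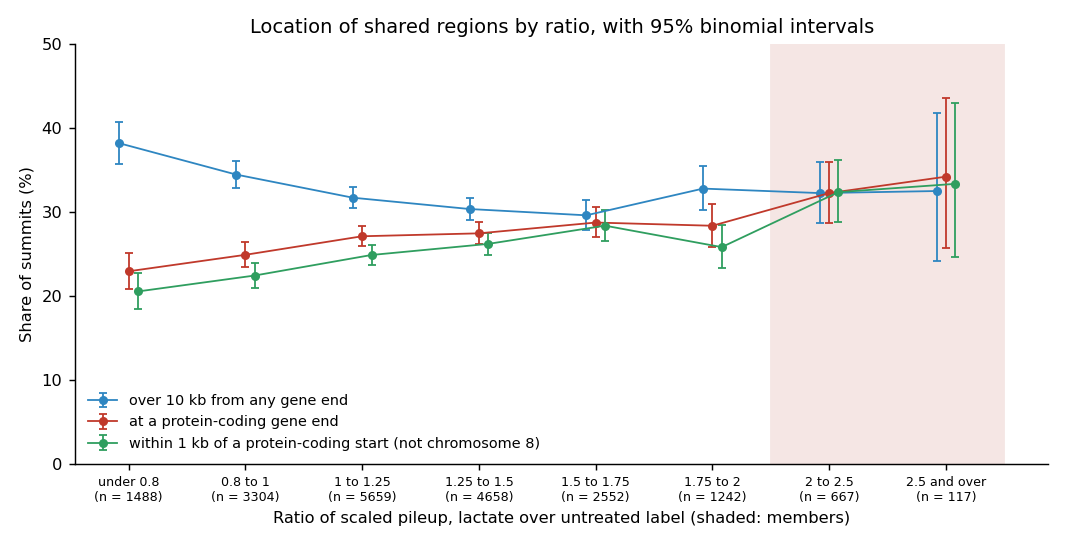
Share of summits (%) at a protein-coding gene end (red), within 1 kb of a protein-coding start (green, without chromosome 8) and over 10 kb from any gene end (blue), by ratio of scaled pileup. The set of starts is incomplete on other chromosomes too. Bars are 95% exact binomial intervals, which cover counting error only, and the shaded part holds the members. The start share is 20.5% in the lowest class, 25.8% just below the members and 33.3% in the highest class.

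Within 1 kb of a start, most summits lay close to it in both sets. Of the start-proximal members 71.4% (65.3 to 77.0%) lay within 250 bp of the start, against 73.8% of all start-proximal pairs, and 21.6% against 21.0% lay downstream. The median position was 89 bp upstream in members and 75 bp upstream in the other pairs. In the 100 bp before the start lay 31.8% of member summits and 39.1% of the others, and in the next 100 bp upstream 24.5% and 19.7%.

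**Figure D4:**
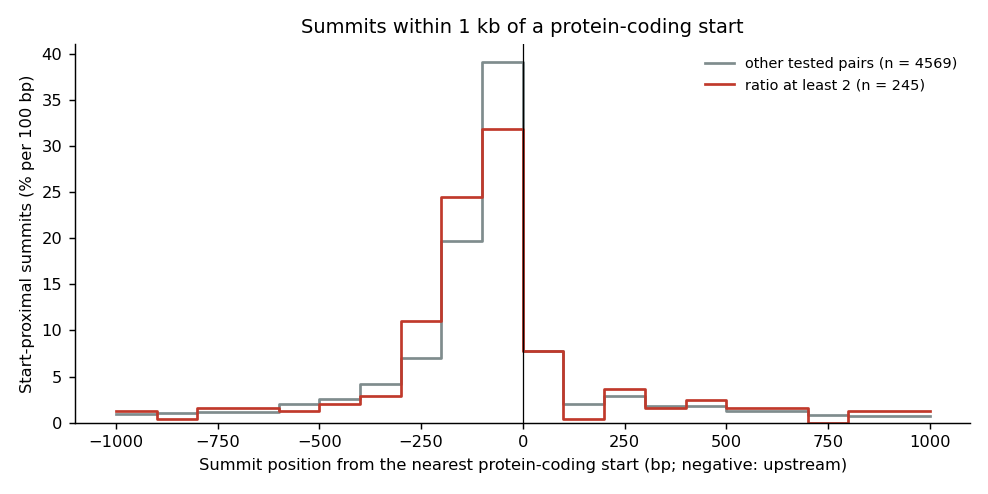
Position of the lactate-labelled summit relative to the nearest protein-coding start used (bp, negative upstream, chromosome 8 left out), as a percentage of start-proximal summits per 100 bp, for the 245 members (red) and the 4569 other tested pairs (grey). Some genes had no start among those used. Both curves peak in the 100 bp before the start, at 31.8% and 39.1%.

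The motif content of member promoters was close to that of the other paired promoters. Member regions overlapped 268 promoter windows of 241 genes, and other tested pairs overlapped 5284 more. The GC box was present on either strand in 75.4% of member promoters and in 75.4% of the other paired ones, against 56.3% of all 22132 promoters. For the ETS core the shares were 31.7%, 32.2% and 21.2%, and for the CCAAT box 43.7%, 42.9% and 34.6%. For the TATA box (TATAAA) they were 3.73%, 4.33% and 9.46%. The YY1 motif (AAGATGGC) stood at 5.97%, 5.92% and 3.54%. Median GC content was 65.3% in member promoters, 65.7% in the other paired ones and 62.3% in all.

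The motif with the widest gap between member and other paired promoters was the hypoxia response core, at 32.8% (27.2 to 38.8%) against 28.2% (27.0 to 29.5%), with overlapping intervals, and 23.1% of all promoters. The E-box (CACGTG), which contains that core, stood at 12.3%, 10.2% and 8.34%. The AP-1 motif (TGANTCA) stood at 5.22%, 5.13% and 6.15%, and the TEAD core at 12.3%, 10.2% and 12.2%. Motifs were counted independently, so overlapping matches count under each.

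Regions of the members were longer in the library labelled lactate, with a median of 484.5 bp against 376.5 bp in the library labelled untreated, while in the other pairs the medians were 460 and 413 bp. In 64 members (8.16%) the untreated-labelled region had the minimum length of 200 bp, against 4.02% of the other pairs. Called length depends on the tags at a region, so these lengths are not independent of the choice of members. The paired summits lay at most 100 bp apart in 72.6% of members and in 80.7% of the other pairs. The local background recomputed from the deposited values moved with the ratio. Scaled for depth, it was higher in the library labelled lactate in 96.2% of members and in 78.0% of the other pairs, with median ratios of 1.25 and 1.11. Over the classes of ratio its median went from 0.989 under 0.8 to 1.30 at 2.5 and over. Its part in the members' ratios was not tested, but it is computed from the same tags in a wider window.

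Members were spread over all 23 chromosomes. The share of tested pairs that were members was highest on X, with 12 of 155 (7.74%, 4.06 to 13.1%), on chromosome 18, with 16 of 215 (7.44%, 4.31 to 11.8%), and on chromosome 4, with 16 of 268 (5.97%, 3.45 to 9.51%). It was lowest on chromosome 7, with 33 of 1425 (2.32%, 1.60 to 3.24%), and on chromosome 11, with 33 of 1268 (2.60%, 1.80 to 3.64%). On X the median ratio of all pairs was also higher, at 1.36, while on chromosomes 4 and 18 it was 1.21 and 1.23. Copy number in CAL27 was not used here.

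**Figure D5:**
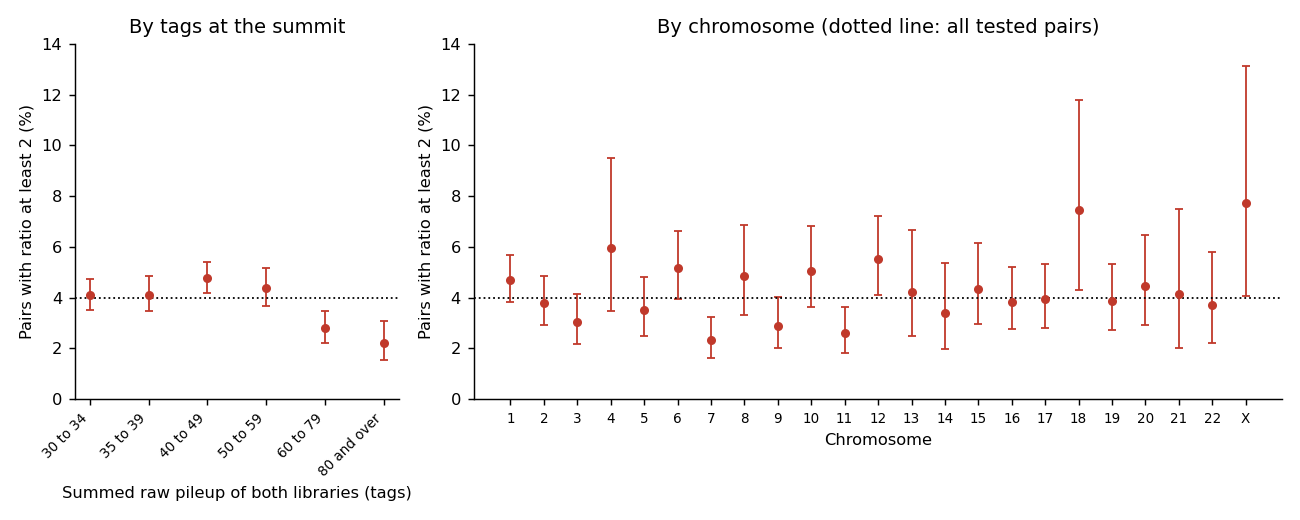
Share of tested pairs with a ratio of at least 2 (%) by summed raw pileup (left) and by chromosome (right), with 95% exact binomial intervals. The dotted line is the share in all tested pairs, 3.98%. The interval of X, from 4.06 to 13.1%, lies just above that line, and the interval of chromosome 7, from 1.60 to 3.24%, lies below it.

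Members were mostly single sites. With gaps of at most 100 kb, 690 stood alone, 44 runs held 2 and 2 runs held 3. Of the 2 runs of 3, that on chromosome 2 held the end of PTMA, which encodes the nuclear protein prothymosin alpha, with 40 tags against 16 (ratio 2.60). The region 42.0 kb upstream of PTMA had 43 against 21 (ratio 2.13), and one nearer to TEX44 had 30 against 13 (ratio 2.40). These were 3 of the 7 tested pairs in the span. On chromosome 16 the run held 2 members inside SRL, the gene of the calcium-binding protein sarcalumenin, with 27 tags against 12 and 38 against 17, and 1 at 15.8 kb from the transcription factor gene TFAP4, with 23 against 10. There 3 of 6 pairs were members.

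Regions near a member were mostly no members themselves. Within 20 kb, the tested pairs beside a member had a median ratio of 1.30, against 1.25 beside other pairs. Another member lay that close to 34 of 388 members with any neighbour, or 8.76% (6.14 to 12.03%), against 5.99% (5.52 to 6.49%) for the other pairs. Within 100 kb the shares were 13.7% and 13.8%.

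By gene, 598 of 8758 protein-coding genes with a tested pair at an end or inside held a member, which is 6.83%. At gene ends alone it was 321 of 6024, or 5.33%. The counts in the lists below are read against these shares. The median over genes of their pairs' median ratio was 1.25.

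Glycolysis and lactate transport had 19 genes with a pair and 2 with a member, neither at a gene end, and a median over genes of 1.40. HK2, the hexokinase that traps glucose in the cell, had a member 11.5 kb inside the gene at chr2:74845225-74846010, with 41 tags (scaled pileup 2.71) against 15 (scaled pileup 0.956), a ratio of 2.84 (1.54 to 5.52). Another pair in HK2 had 36 against 21, and one more had 19 against 27, so the gene's pairs went both ways. Paired summits lay 328 bp apart in the member and 305 and 511 bp apart in the others, so they may not be the same sites. In the member the lactate-labelled summit lay outside the untreated-labelled region. PDK1, the kinase that holds pyruvate back from the mitochondrion, had a member inside the gene, 50769 bp from its nearer end. This member had 23 tags against 10, a ratio of 2.39 (1.09 to 5.62), from an untreated-labelled region of 200 bp. The other 3 PDK1 pairs had ratios of 1.04 to 1.71.

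Genes of lactate production and export held no member. LDHA, the lactate dehydrogenase subunit that favours lactate formation, had 18 tags against 18 at its end and 27 against 31 inside, with ratios of 1.04 and 0.904. The transporter gene SLC16A1 had 21 against 18, a ratio of 1.21. SLC16A3, which encodes the exporter of glycolytic cells, had 42 against 27 just outside the gene (ratio 1.61) and 19 against 23 inside (0.858).

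Among writers, erasers and readers of lysine acylation 2 of 15 genes with a pair held a member. KAT7, a histone acetyltransferase gene, had 24 tags against 10 at an end shared with FAM117A, a ratio of 2.49 (1.15 to 5.84). EP300 had 21 tags against 23, a ratio of 0.948, and was no member.

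The hypoxia response list had a member at 2 of 18 genes with a pair, and these were 2 of the 14 with a pair at an end. ARNT, the partner of the HIF alpha subunits, had 36 tags against 18, a ratio of 2.08, and BHLHE40, a circadian and hypoxia-responsive repressor, had 29 against 14, a ratio of 2.15. HIF1A had 28 against 25, a ratio of 1.16 (0.654 to 2.08), and VEGFA had 0 shared pairs.

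The cell cycle list had members at 4 of 21 genes with a pair, with a median over genes of 1.36. CCNB1, the mitotic cyclin, had 28 tags (scaled pileup 1.85) against 11 (scaled pileup 0.701) at its start, a ratio of 2.64 (1.28 to 5.88). CDK4 had 51 against 26 and the transcription factor gene E2F3 38 against 19, both at an end, with ratios of 2.04 and 2.08. CDK6, which like CDK4 binds D-type cyclins, had 22 against 11 inside the gene, with an interval of 0.965 to 4.74 that included 1. The 2 pairs of MYC had ratios of 1.04 and 1.18, so MYC held no member.

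In the list of squamous epithelium and keratins 3 of 22 genes with a pair held a member. SFN, which encodes the epithelial 14-3-3 sigma, had 65 tags (scaled pileup 4.30) against 28 (scaled pileup 1.78) at its start, a ratio of 2.41 (1.53 to 3.90). CDH3, the gene of P-cadherin, had 41 tags against 16 at one end, a ratio of 2.66 (1.46 to 5.08), while its other 5 pairs lay between 1.01 and 1.53. PKP1, a desmosomal plaque gene, had 35 against 17. Among the 7 squamous markers with a pair, SFN was the one with a member. TP63, the lineage factor of squamous cells, had 5 tested pairs with ratios of 0.986 to 1.37. CDH1, the gene of E-cadherin, had 6, with ratios of 0.588 to 1.57, and neither held a member.

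TGF-beta and epithelial-mesenchymal transition genes had members at 3 of 10 genes with a pair, none at a gene end. SMAD7, the inhibitory SMAD induced by TGF-beta, had 30 tags (scaled pileup 1.98) against 13 (scaled pileup 0.828) in its 1 tested pair, a ratio of 2.40 (1.21 to 5.00). CDH2, the gene of N-cadherin, had 25 against 11, a ratio of 2.36, also in its 1 tested pair. SMAD3, which carries the TGF-beta signal to the nucleus, had 40 against 20, a ratio of 2.08, while its other 7 pairs ran from 1.09 to 1.54.

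In the YAP and TEAD list 2 of 15 genes with a pair held a member. AXL, a receptor tyrosine kinase gene and YAP target, had 39 tags against 17, a ratio of 2.38 (1.32 to 4.49), with paired summits 442 bp apart. WWTR1, the gene of the YAP paralogue TAZ, had 45 against 23, a ratio of 2.03 (1.20 to 3.52). The EGF family list had 1 of 11, at ERRFI1, a feedback inhibitor of the EGF receptor, with 27 tags against 13. The list of AP-1 and MAPK feedback genes had 0 of 16 and that of integrins, laminins and matrix 0 of 19, with medians over genes of 1.32 and 1.23.

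NF-kappaB, interferon and chemokine genes had 2 of 20: OSMR, the oncostatin M receptor gene, with 23 tags against 9 (ratio 2.65, 1.18 to 6.51), and NFKB2, with 37 against 19 (ratio 2.02). Cytoskeletal genes had 2 of 19: ACTN1, an actin crosslinker gene, with 59 against 27 in 1 of 8 pairs (ratio 2.27, 1.42 to 3.72), and ZYX, the focal adhesion gene of zyxin, with 37 against 17 (ratio 2.26). ACTB had 0 shared pairs. Ribosomal protein genes had 2 of 20, at RPLP1, with 32 against 15, and RPL37, with 31 against 16, and their median over genes was 1.20. The respiration and TCA cycle list had 1 of 15. Of the 7 markers of other cell types with a pair, the neuronal gene SYT1 held a member, with 28 tags against 13 (ratio 2.24), and that list's median over genes was 1.56. Over the 16 lists these medians ran from 1.17, in the EGF family list, to the 1.56 of the markers of other cell types, so the pathway medians lie inside a range that includes genes not chosen for this tissue. Most of these lists had from 0 to 3 genes with a member, too few to set apart from the share over all genes.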

How the data were processed

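CUT&Tag libraries of CAL27 cells, 1 untreated and 1 given 10 mM lactate for 24 hours, were compared. The submitters' processing notes name hg38, BWA, MACS2 2.1.0 and fastp 0.20.0. Per the file headers, MACS 2.1.0.20150420 called peaks in each library separately, without a control, keeping q values up to 0.05, with tags shifted by -100 bp and extended to 200 bp. The deposited lists give per summit a pileup (a signal counted in tags, without depth scaling) and a fold enrichment (its ratio to local background), per the file headers. Any spike-in scaling is not given in the sources used.

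Summits of the same start and end were collapsed to the one of highest pileup. Each region of the library labelled lactate was paired with the untreated-labelled region it overlapped most, by at least 1 bp, on chromosomes 1 to 22 and X. Pileup was divided by the library's tags in units of 1000000 (15696147 tags in the library labelled untreated, 15120031 in the library labelled lactate). Pairs were tested against the ratio threshold at a summed raw pileup of at least 30. Local background was recomputed from pileup and fold.

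Gene ends came from a RefSeq table for GRCh38.p14 that was used without strand or exons, with 1 kb to both sides of either end as the window. Start sites came from RefSeq promoters of 15812 protein-coding genes (22132 starts). Chromosome 8 starts were not used here, and some protein-coding genes on other chromosomes had no start among those used. No test was run, each group having 1 library, and 95% intervals are exact (Clopper-Pearson). The interval of a ratio comes from the lactate-labelled share of the summed pileup. Intervals cover counting error only, since tags are not independent molecules.

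The members, the 16 gene lists and the rule for named genes were chosen with earlier results of these data known. That rule took the 12 members of highest ratio at a protein-coding gene end, the 8 of highest summed pileup, up to 3 genes per list, the 4 of highest ratio inside genes and the 4 over 10 kb from any gene end, the 3 densest runs, and the 3 pairs on each side of the threshold. It also took 10 genes given whether or not they held a member (ACTB, CDH1, TP63, MYC, VEGFA, HIF1A, EP300, SLC16A3, SLC16A1 and LDHA). A few items that it picks are not reported here. A further 6 lists were chosen after values were seen. The pairing code was checked on simulated lists and against bedtools. In all, 13 alternatives covered scaling, pairing, depth, threshold, background and window. Scripts ran in Python 3.11.15 with matplotlib 3.10.9, SciPy 1.17.1, numpy 2.4.6 and pandas 2.3.3.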

Additional observations from a re-analysis of the deposited data

How the results depend on the processing

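Over 13 alternatives, 40 of 67 recomputed values stayed within 1.5 times the count, or inside the interval, of the reported ones. Setting the median ratio of all pairs to 1 turned the balance of the directions: it left 146 members, all among the 784, against 258 opposite regions, where 784 stood against 67. A threshold of 1.5 gave 4578 members and 432 opposite regions, and a threshold of 3 gave 18 and 2. Subtracting local background gave 1382 members, 131 opposite regions and a median ratio of all pairs of 1.24.

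A summed pileup of at least 40 gave 474 members, 28 opposite regions, 28.7% of members over 10 kb from a gene end, 28.5% of all pairs at a gene end and a median ratio of 1.25. A summed pileup of at least 20 gave 134 opposite regions, 28.8% of members and 24.0% of all pairs at a gene end, 36.2% of members over 10 kb from one and a median of 1.19. With summits at most 200 bp apart there were 30 opposite regions and 26.0% of all pairs lay at a gene end, and with mutual best overlaps there were 38 opposite regions, against 67. Fold enrichment of at least 5 gave 27.8% of all pairs at a gene end and a median of 1.25. Leaving out high local background gave a median of 1.21. A gene-end window of 2 kb took in 37.0% of members and 31.2% of all pairs. The member share at gene ends lay above that of all pairs in 9 of 9 alternatives that gave both. The cause of these differences was not tested.

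No paired analysis was possible because each group had 1 library. Depth limits single regions: the ratio interval of 229 of 784 members lay above the median ratio of all pairs, and that of 256 of all 19687 tested pairs.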

Other observations

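Several gene families not covered above also held members. Their lists were written after values had been seen, so the counts below describe them and support nothing. Of 28 mitosis and centromere genes with a tested pair, 12 held a member, 11 of them at a gene end, and the median over genes was a ratio of 1.49. CCNB1, CDC20, CDC27, CKS2, CDKN3, CENPA, CENPF, CENPH, DSN1, CKAP2L, RCC1 and RANGAP1 were those genes. CKS2, a small subunit that binds cyclin-dependent kinases, had 57 tags against 27. CENPA, the histone H3 variant of centromeres, had 31 against 16, and CDC20, an activator of the anaphase-promoting complex, had 40 against 20. CCNB1 and CENPH lie on the same stretch of chromosome 5, and their members were separate regions.

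Among 18 mitochondrial protein import genes with a pair, 5 held a member, all at a gene end: TIMM22, TOMM34, TIMMDC1, TIMM44 and PITRM1. Their median over genes was 1.58. TIMMDC1, named for its similarity to import proteins, is known for the assembly of respiratory complex I, and PITRM1 degrades the presequences of imported proteins. TIMM44, which tethers the import motor to the inner-membrane channel, had 47 tags against 23. Of 37 hnRNP, DEAD-box and SR protein genes with a pair, 7 held a member at a gene end (HNRNPF, HNRNPH3, DDX3X, DDX17, DDX42, SRSF8 and SRSF11), and the median over genes was 1.44. DDX42 had 52 tags against 22, at an end that it shares with CCDC47.

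Cholesterol synthesis and its regulators had members at 5 of 19 genes with a pair: FDFT1, MVK, PMVK, LSS and SREBF2, with a median over genes of 1.28. The MVK member lay between MVK and MMAB. Peroxins, the proteins of peroxisome assembly, had members at 3 of 13 genes (PEX39, PEX11G and PEX5), with a median of 1.17. At the PEX39 end the tags were 54 against 20. Latent TGF-beta binding and SMAD genes had members at 6 of 9 genes with a pair (LTBP1, LTBP2, BMP1, SMAD3, SMAD7 and TGIF1), none of them at a gene end, with a median of 1.40. These 9 genes held 35 pairs, of which 6 were members. The TGIF1 summit, though inside the gene, lay 145 bp before an annotated TGIF1 start.

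A pair of members fell at or inside each of 17 of the 8758 protein-coding genes with a tested pair, also listed after values were seen. These are not all separate cases, since FAM228B and TP53I3, both among them, share a member region. PHLDB2 had 2 members among 13 pairs, CREB5 2 among 7, BACH2 2 among 5 and SOX6 2 among 4. CIITA, the master coactivator of MHC class II genes, had 2 among 3, with 36 tags against 16 and 29 against 14. ISCU, the scaffold of iron-sulphur cluster assembly, had 2 of 2, with 32 against 14 and 36 against 16.

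Outside chromosomes 1 to 22 and X, the 8 tested pairs of mitochondrial DNA had ratios of 1.61 to 1.98, with a median of 1.86. None of them reached 2. The 128 tested pairs on unplaced sequences had a median of 0.937, and 0 of them reached 2. Mitochondrial DNA carries no nucleosomes, and whether the tags there come from the antibody was not tested.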
